A study of Mus musculus with 26 samples.

Results

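The comparison sets 6 arrays, titled ES15 to ES20, against 4 arrays, titled ES21 to ES24, in a series of 26 mouse arrays. All 10 carry the same labels: strain C57BL/6, a common inbred mouse strain, and an embryonic (embryoid) body cell as tissue. Outside the sets, ES25 and ES26 are labelled C57BL/6 too, while ES1 to ES14 are labelled 129S2/SvPas. Values quoted below from ES1 to ES14 therefore come from another strain. The labels give no genotype other than the strain, no treatment, no day of culture, no batch and no scan date, and they do not say that the arrays came from separate cultures. The 2 sets were chosen by their measured values, since ES15 to ES20 were rich in globin RNA and ES21 to ES24 in RNA of naive pluripotency genes. The whole difference between them is therefore a description, and no test is given for it. The order of the titles follows the sets, so an unrecorded batch and the sets cannot be told apart. RNA was hybridised to exon arrays (Affymetrix Mouse Exon 1.0 ST), on which most genes have several probe sets, groups of probes that mostly lie within 1 exon, and values are log2 values. A difference of 1 log2 unit is a 2-fold difference, and differences are ES15-ES20 minus ES21-ES24 throughout.

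Embryonic stem cells in the naive state keep an Oct4 (Pou5f1), Sox2 and Nanog network active together with factors such as Esrrb, Tfcp2l1 and Nr0b1. In embryoid bodies, aggregates of differentiating stem cells, part of the mesoderm forms blood and vessel cells, and the first red cells resemble those of the yolk sac. Those primitive red cells use the embryonic globins Hbb-y, Hbb-bh1 and Hba-x, and they arise near endothelium and the first megakaryocytes.

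The promoters of 3 genes of the red cell programme, higher in ES15-ES20, and 2 pluripotency genes, lower there, are shown as examples. Several other genes differed more than Hba-x and Alas2. Hbb-bh1 and Dppa5a had no window among the promoters used, and the window of Emcn is not shown. Each line holds the 250 bases before the gene's start from RefSeq (GRCm38.p6), read 5′ to 3′ on the gene's strand. Capitals mark matches to the motifs searched on both strands, with overlapping matches kept. In the blood genes these were the GATA factor motifs AGATAA and TGATAA. The Klf family motif CCNCNCCC and the box CCAAT were searched there as well. In the pluripotency genes they were the octamer ATTTGCAT and the Esrrb-type motif AAGGTCA. Each motif was marked only in its own group of genes, so lower case letters can still match a motif of the other group. The Zfp42 window, for instance, holds ccccaccc, a CCNCNCCC match, and the Alas2 window holds aaggtca.
Hbb-y, chr7:103853208-103853457, minus strand: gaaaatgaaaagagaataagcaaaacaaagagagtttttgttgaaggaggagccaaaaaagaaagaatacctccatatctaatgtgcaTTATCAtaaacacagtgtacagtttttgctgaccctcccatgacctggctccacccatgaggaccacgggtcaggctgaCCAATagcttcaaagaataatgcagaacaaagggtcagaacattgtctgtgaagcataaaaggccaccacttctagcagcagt
Hba-x, chr11:32276350-32276599, plus strand: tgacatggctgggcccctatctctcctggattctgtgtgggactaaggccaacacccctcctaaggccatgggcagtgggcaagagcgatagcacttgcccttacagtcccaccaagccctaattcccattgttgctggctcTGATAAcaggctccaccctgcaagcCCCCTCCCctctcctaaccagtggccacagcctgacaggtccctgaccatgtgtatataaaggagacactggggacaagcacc
Alas2, chrX:150547167-150547416, plus strand: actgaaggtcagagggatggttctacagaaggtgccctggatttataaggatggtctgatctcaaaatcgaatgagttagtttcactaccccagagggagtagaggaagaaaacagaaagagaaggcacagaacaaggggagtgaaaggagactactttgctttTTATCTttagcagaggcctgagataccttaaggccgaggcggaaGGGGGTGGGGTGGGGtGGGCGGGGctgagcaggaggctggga
Zfp42, chr8:43307010-43307259, minus strand: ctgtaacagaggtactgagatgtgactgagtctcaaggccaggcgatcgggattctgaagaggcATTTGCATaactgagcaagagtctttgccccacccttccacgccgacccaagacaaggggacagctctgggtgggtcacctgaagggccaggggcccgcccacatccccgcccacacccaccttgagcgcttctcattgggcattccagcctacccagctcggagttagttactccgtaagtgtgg
Nr0b1, chrX:86191525-86191774, plus strand: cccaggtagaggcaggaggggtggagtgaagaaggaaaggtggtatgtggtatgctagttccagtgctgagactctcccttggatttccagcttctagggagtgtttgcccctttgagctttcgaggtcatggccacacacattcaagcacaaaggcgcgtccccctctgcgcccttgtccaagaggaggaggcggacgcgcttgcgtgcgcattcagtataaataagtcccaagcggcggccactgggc

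In the Hbb-y window a TGATAA match on the opposite strand lay 162 to 157 bases before the start, and a CCAAT match lay 83 to 79 bases before it. In the Hba-x window a TGATAA match lay 108 to 103 bases before the start and a CCNCNCCC match 83 to 76 bases before it. The Alas2 window held an AGATAA match 86 to 81 bases before the start and 4 CCNCNCCC matches, some of them overlapping, within the last 42 bases. The Zfp42 window held ATTTGCAT 186 to 179 bases before the start, and the Nr0b1 window held neither ATTTGCAT nor AAGGTCA. Over 32851 promoter windows of this length, AGATAA was found in 9.99%, TGATAA in 7.94%, CCNCNCCC in 45.9%, CCAAT in 33.8%, ATTTGCAT in 1.60% and AAGGTCA in 4.08%. A match is a description of these letters, not a bound site.

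Among 18341 genes, 945 (5.15%) were higher in ES15-ES20 by at least 1 log2 unit with no overlap between the arrays of the sets, and 916 (4.99%) were lower by the same rule. These genes are termed called here, and since the sets were chosen on this contrast the shares are only its background. Each count of called list members below is to be read beside these shares. A minimum of 2 log2 units left 327 higher and 166 lower genes, and a minimum of 4 left 38 higher and 11 lower genes. The median difference over all genes was -0.04. Of the 1861 called genes, 1827 had at least 0.75 of their probe sets shifted the same way. Of the 945 higher genes, 670 lay below the median gene in ES21-ES24, and of the 916 lower genes, 469 lay below it in ES15-ES20. Correlations between arrays over these genes, which are not independent, were 0.945 to 0.991 within ES15-ES20, 0.971 to 0.991 within ES21-ES24 and 0.897 to 0.948 between the sets.

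**Figure D1:**
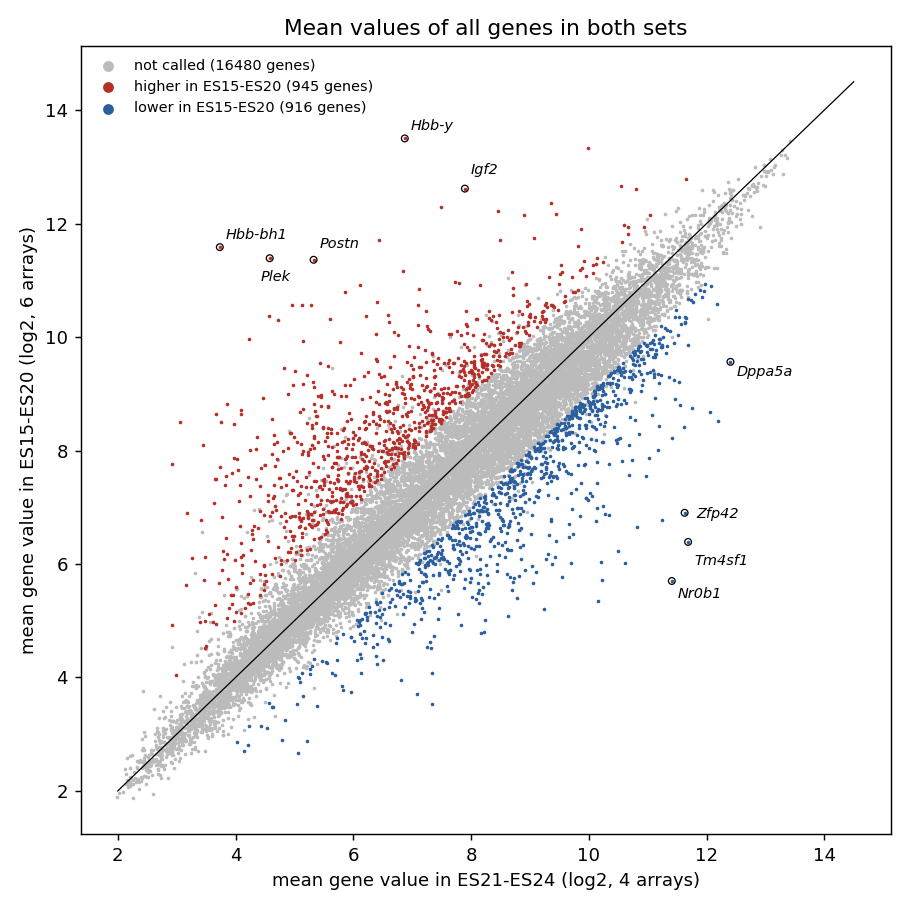
Mean value of each of 18341 genes in ES15-ES20 (vertical, log2, 6 arrays) and in ES21-ES24 (horizontal, log2, 4 arrays), with called genes coloured and the line of equal values drawn. The 945 genes higher in ES15-ES20 reach farther from the line than the 916 lower ones, with Hbb-bh1 at 11.59 in ES15-ES20 and 3.73 in ES21-ES24, and Nr0b1 at 5.70 in ES15-ES20 and 11.41 in ES21-ES24.

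All 6 measured globin genes of 11 listed were called higher in ES15-ES20. Hbb-bh1, an embryonic beta-type globin, had 12.57, 12.67, 12.13, 11.61, 10.80 and 9.74 in ES15 to ES20, against 4.25, 3.38, 3.96 and 3.34 in ES21 to ES24. The difference of 7.85 was the largest of any named gene, and ES20 held the lowest value of its set. Hbb-y, the other early embryonic beta-type globin, had 13.47, 13.84, 13.71, 13.66, 13.44 and 12.90 in ES15 to ES20, against 7.42, 6.93, 6.40 and 6.76 in ES21 to ES24. Its 6 values in ES15-ES20 lay close together, and the difference was 6.63. Hba-x, the embryonic alpha-type globin, had 12.70, 13.06, 12.83, 12.58, 11.88 and 10.66 in ES15 to ES20, against 8.05, 7.45, 7.15 and 7.29 in ES21 to ES24, a difference of 4.80. In RNA from a mixture, fewer cells of a type and less RNA per cell cannot be told apart.

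Hbb-b1, an adult beta globin, had 9.50, 10.29, 10.20, 10.20, 10.75 and 10.86 in ES15 to ES20, against 4.85, 4.53, 4.60 and 4.87 in ES21 to ES24. Here ES15 held the lowest value of its set and ES20 the highest, whereas ES20 was lowest for Hbb-bh1, Hbb-y and Hba-x. Hbq1a averaged 8.31 ± 0.84 in ES15-ES20 and 4.94 ± 0.49 in ES21-ES24 (SD, n = 6 and 4), and its near-identical paralog Hbq1b averaged 7.80 ± 0.54 in ES15-ES20 and 6.07 ± 0.16 in ES21-ES24. Probes may not separate these paralogs, nor the adult beta globins from each other. Outside both sets, Hbb-bh1 stood at 10.67 in ES14 and 7.10 in ES13, both labelled 129S2/SvPas, at 2.82 in ES25 and 3.86 in ES26, and between 2.9 and 4.0 in ES1 to ES12. ES14 thus lay within the range of ES15-ES20 for Hbb-bh1, while its Emcn value of 4.94 lay below it. Over whole lists ES14 lay between the sets. Its globin mean was 8.71, against 9.72 to 11.31 in ES15-ES20 and 5.47 to 5.92 in ES21-ES24. Its endothelium mean was 7.43, against 7.84 to 8.49 in ES15-ES20 and 6.48 to 6.63 in ES21-ES24. The adult gene Hbb-b1 was between 8.0 and 12.6 in ES1 to ES12. By these markers ES15-ES20 carried embryonic globin RNA in all 6 arrays, and Hbb-bh1 in ES21-ES24 lay below the lowest array median of all probe sets, 5.40.

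**Figure D2:**
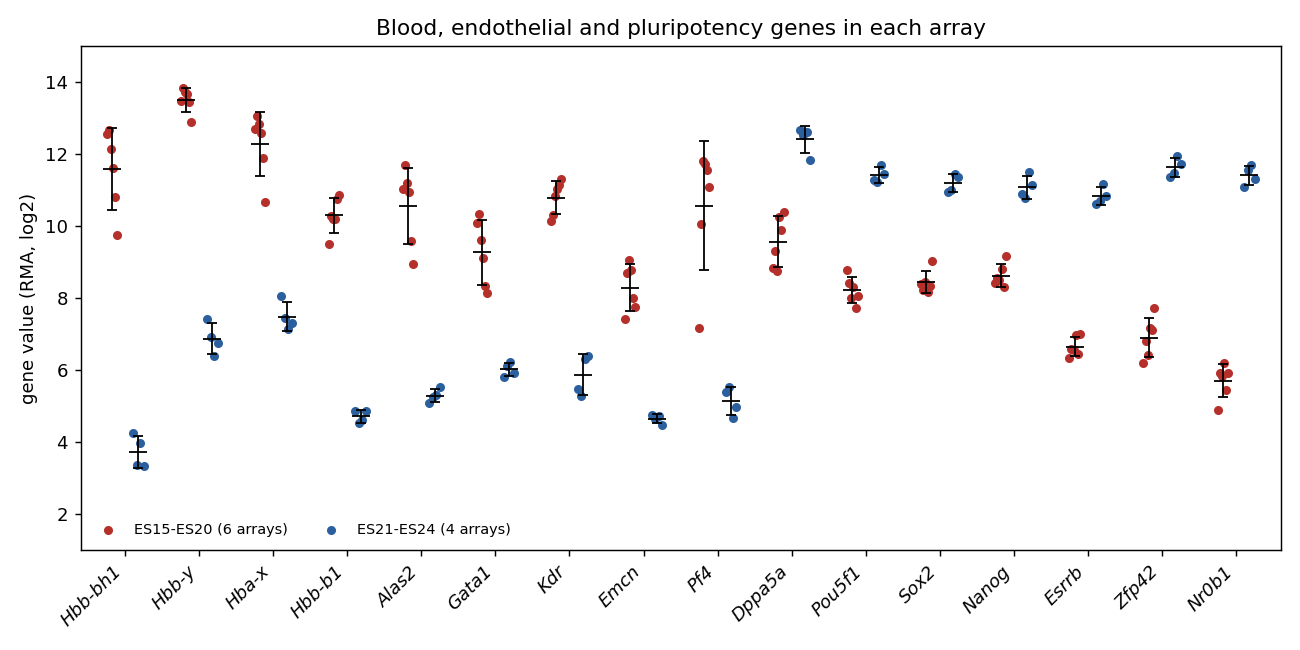
Gene values (log2) of 16 genes in each array of ES15-ES20 (left in each pair) and ES21-ES24 (right), with points for arrays and black marks for the mean and SD (n = 6 and 4). The blood and endothelial genes shown are higher in ES15-ES20 and the pluripotency genes shown lower. All 16 were picked from called genes, so the lack of overlap follows from that choice. Other members of these lists, such as Klf4, Gata2 and Tek, were not called.

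Genes of the red cell other than globins were called higher in part. Of 21 measured heme and iron genes, 7 were called higher and 0 lower, with a median difference of 0.87 against -0.04 over all genes. Alas2, the erythroid enzyme that starts heme synthesis, had 8.94 as its lowest, 10.98 as its median and 11.69 as its highest value in ES15-ES20, against 5.08, 5.25, 5.29 and 5.52 in ES21 to ES24. ES20 was lowest and ES16 highest, and no arrays overlapped. Slc25a37 (mitoferrin, which imports mitochondrial iron) averaged 10.23 ± 0.89 in ES15-ES20 and 7.92 ± 0.82 in ES21-ES24. The iron exporter Slc40a1 averaged 9.82 ± 0.64 in ES15-ES20 and 7.10 ± 0.59 in ES21-ES24, and Blvrb, a biliverdin reductase, averaged 10.07 ± 0.50 in ES15-ES20 and 7.92 ± 0.59 in ES21-ES24. The transferrin receptor Tfrc, which takes up iron in all dividing cells, averaged 11.22 ± 0.60 in ES15-ES20 and 11.37 ± 0.06 in ES21-ES24 and was not called. Tfrc was chosen after its values were seen.

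Of 21 measured genes for red cell membrane proteins and enzymes, 13 were called higher and 0 lower, with a median difference of 1.40. Slc4a1 (band 3, the anion exchanger) had 9.98 as its lowest, 11.06 as its median and 11.85 as its highest value in ES15-ES20, against 6.10, 6.14, 6.05 and 6.17 in ES21 to ES24. Rhag, the Rh-associated glycoprotein, differed by 4.76, the tropomodulin gene Tmod1 by 3.17 and Trim10, a gene of terminal red cell differentiation, by 3.15. The membrane genes Dmtn, at a difference of -1.08, and Aqp1, at -1.32, were lower on average but not called.

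Among 24 measured transcription factors of blood and endothelium, 14 were called higher and 0 lower, with a median difference of 1.58. Fli1, an Ets factor of megakaryocytes and endothelium, had 8.62 as its lowest, 9.49 as its median and 10.04 as its highest value in ES15-ES20, against 5.55, 4.89, 4.94 and 5.45 in ES21 to ES24. Gata1, the main erythroid and megakaryocytic GATA factor, averaged 9.27 ± 0.90 in ES15-ES20 and 6.02 ± 0.19 in ES21-ES24. Nfe2 differed by 3.59 and Lmo2, an adaptor of the Tal1 complex, by 3.26. Klf1, an erythroid factor chosen after its values were seen, had 9.59, 9.83, 8.72, 8.11, 7.34 and 6.93 in ES15 to ES20, against 5.52, 5.23, 5.47 and 5.70 in ES21 to ES24. ES15 and ES16 were highest and ES20 lowest for Klf1.

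Some regulators of early blood were not called. Gata2, a factor of stem and progenitor cells, averaged 7.81 ± 0.21 in ES15-ES20 and 7.86 ± 0.54 in ES21-ES24. Etv2, which specifies blood and endothelial progenitors, averaged 6.03 ± 0.48 in ES15-ES20 and 5.80 ± 0.29 in ES21-ES24, and ES13, outside both sets, held 7.68. Runx1, needed for definitive blood stem cells, averaged 9.30 ± 0.43 in ES15-ES20 and 8.06 ± 0.85 in ES21-ES24; it was called higher, but not without ES24, where its difference was 0.86. Gata2, Etv2 and Runx1 were chosen after their values were seen.

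Endothelial genes were higher in most cases, with 21 of 35 measured members called higher and 1 lower and a median difference of 1.34. Emcn, the endothelial sialomucin endomucin, had 7.41, 8.70, 9.05, 8.79, 8.00 and 7.75 in ES15 to ES20, against 4.75, 4.65, 4.71 and 4.48 in ES21 to ES24. Every array of ES15-ES20 exceeded every array of ES21-ES24, and ES15 was lowest in its set. Kdr, the VEGF receptor of mesoderm and endothelium, had 10.13, 10.32, 10.82, 11.03, 11.14 and 11.30 in ES15 to ES20, against 5.47, 5.28, 6.31 and 6.40 in ES21 to ES24. Cd93 differed by 4.50 and VE-cadherin (Cdh5) by 3.55. Apln, the ligand of the apelin receptor, was the 1 member called lower, with 5.76 ± 0.35 in ES15-ES20 and 8.00 ± 0.30 in ES21-ES24; as the median over all its probe sets it differed by -0.92 and was not called. Pecam1, which stem cells express as well, averaged 9.89 ± 0.32 in ES15-ES20 and 8.34 ± 0.70 in ES21-ES24. Apln and Pecam1 were chosen after their values were seen.

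Of 15 measured megakaryocyte and platelet genes, 12 were called higher and 1 lower, with a median difference of 3.66. Pf4, platelet factor 4, had 7.16, 10.05, 11.80, 11.72, 11.57 and 11.09 in ES15 to ES20, against 5.38, 5.52, 4.66 and 4.96 in ES21 to ES24. ES15 was far below the other 5 arrays of its set and still above all 4 of ES21-ES24, but as the median over all its probe sets Pf4 overlapped. Plek (pleckstrin, a substrate of protein kinase C in platelets and leukocytes), which was not in the list, averaged 11.39 ± 0.81 in ES15-ES20 and 4.58 ± 0.59 in ES21-ES24. Clec1b differed by 4.97, the platelet tubulin Tubb1 by 4.72 and F2rl2, a thrombin receptor family member, by 4.54. Ppbp, a platelet chemokine, averaged 9.45 ± 2.11 in ES15-ES20 and 5.64 ± 0.51 in ES21-ES24 and was not called, because its value of 5.47 in ES15 lay within the range of ES21-ES24. Selp (P-selectin), chosen after its values were seen, was the member called lower, at 5.92 ± 0.50 in ES15-ES20 and 7.97 ± 0.73 in ES21-ES24.

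Of 24 measured leukocyte and myeloid genes, 8 were called higher and 0 lower, with a median difference of 1.11. Ptprc (CD45), the general leukocyte surface phosphatase, had 4.52, 6.45, 7.48, 7.08, 7.02 and 7.11 in ES15 to ES20, against 4.23, 4.24, 4.42 and 4.22 in ES21 to ES24. In ES15 it was barely above ES21-ES24, and as the median over all its probe sets it overlapped. The macrophage and neutrophil lysozyme Lyz2 had 5.37, 5.79, 6.60, 8.16, 9.33 and 9.94 in ES15 to ES20, against 4.05, 3.76, 4.24 and 4.79 in ES21 to ES24. Tyrobp, an adaptor of myeloid receptors, averaged 8.62 ± 1.01 in ES15-ES20 and 5.36 ± 0.81 in ES21-ES24, and Cd52, a small leukocyte surface antigen, averaged 6.90 ± 1.01 in ES15-ES20 and 3.18 ± 0.21 in ES21-ES24. Outside the list, the chemokine gene Ccl3 differed by 5.79 and Klhl6, a gene of B cell development, by 5.73. Lyz2 stood between 11.9 and 13.0 and Ptprc between 10.6 and 11.4 in ES1 to ES12, above every array of ES15-ES20.

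The opposite side of the comparison was the pluripotency network. Of 35 measured naive pluripotency genes, 26 were called lower in ES15-ES20 and 0 higher, all 35 differences were negative, and their median was -2.36. Nr0b1 (Dax1), a nuclear receptor bound to Oct4 in stem cells, had 4.90, 5.92, 5.84, 6.20, 5.43 and 5.90 in ES15 to ES20, against 11.09, 11.55, 11.70 and 11.31 in ES21 to ES24. Zfp42 (Rex1), a widely used naive marker, had 6.21, 6.80, 6.41, 7.18, 7.10 and 7.71 in ES15 to ES20, against 11.36, 11.48, 11.95 and 11.72 in ES21 to ES24. Neither gene overlapped between the sets, and both differed by more than 4 log2 units. The orphan receptor Esrrb differed by -4.17, Dppa2 by -4.59 and the F-box gene Fbxo15, an Oct4 target, by -4.18.

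Dppa5a (Esg1), an RNA-binding protein of stem cells, had 8.82, 9.30, 8.74, 10.24, 9.88 and 10.39 in ES15 to ES20, against 12.66, 12.52, 12.62 and 11.84 in ES21 to ES24. Its difference of -2.84 left ES15-ES20 well above ES1 to ES12, where Dppa5a lay between 4.4 and 5.2. The core factors behaved likewise and were chosen after their values were seen. Pou5f1 had 8.79, 8.42, 8.01, 8.31, 7.74 and 8.07 in ES15 to ES20, against 11.28, 11.23, 11.70 and 11.44 in ES21 to ES24, and lay between 4.6 and 6.1 in ES1 to ES12. Nanog averaged 8.62 ± 0.31 in ES15-ES20 and 11.07 ± 0.31 in ES21-ES24, with 5.8 to 6.5 in ES1 to ES12. Sox2 averaged 8.44 ± 0.31 in ES15-ES20 and 11.19 ± 0.24 in ES21-ES24, with 5.3 to 6.3 in ES1 to ES12.

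Other stem cell genes were lower too, with Tdgf1 (Cripto, a Nodal co-receptor) at -3.68, Utf1 at -3.38 and Tfcp2l1 at -3.00, each chosen after its values were seen. Klf4 and Klf2, 2 further factors of the naive network chosen in the same way, were not called. Klf4 had 6.18, 7.03, 8.48, 8.75, 9.19 and 9.29 in ES15 to ES20, against 9.00, 9.26, 9.40 and 8.96 in ES21 to ES24, so ES19 and ES20 overlapped the other set while ES15 and ES16 lay far below it. Klf2 averaged 9.65 ± 0.69 in ES15-ES20 and 10.45 ± 0.08 in ES21-ES24. Dppa3 (Stella), a marker of naive cells and germ cells, averaged 5.94 ± 0.54 in ES15-ES20 and 6.91 ± 0.87 in ES21-ES24 and was not called either. Among the remaining 12 largest lower differences were Rex2 at -4.48, Pla2g1b, a secreted phospholipase, at -4.51, the G protein subunit Gng3 at -4.04 and Zfp296, a zinc finger factor of stem cells, at -3.78.

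Several regulators of DNA methylation were lower as well. Dnmt3l, a cofactor of de novo methylation, averaged 6.22 ± 0.33 in ES15-ES20 and 10.50 ± 0.51 in ES21-ES24. Tet1, which oxidises methylcytosine, averaged 8.10 ± 0.08 in ES15-ES20 and 10.69 ± 0.61 in ES21-ES24, whereas Tet3 was higher, at 9.00 ± 0.24 in ES15-ES20 and 7.93 ± 0.23 in ES21-ES24. Tet3 was near the threshold and was not called without ES17. Of 14 measured genes of this list, 1 (7.14%) was called higher and 3 (21.4%) lower, against 5.15% and 4.99% over all genes. The list's median was -0.34, and the other lower gene, the de novo enzyme Dnmt3b, differed by -1.59. Of 18 measured germline genes held off by methylation in somatic cells, 6 were called lower and 0 higher, with a median of -0.85. Sycp3, a meiotic chromosome axis gene, had 4.65, 3.80, 4.46, 3.97, 4.29 and 4.65 in ES15 to ES20, against 6.17, 6.35, 7.27 and 6.25 in ES21 to ES24, Hormad1 differed by -2.05, Mael by -1.97 and Stk31 by -1.89. These 4 genes were below the median gene value of 7.38 in every array of both sets, with ES23 highest for Sycp3, Mael and Stk31. The 3 measured genes of 13 listed for the two-cell-like state were not called, with Eif1a at -0.98. Eif1a was bright in both sets, at 10.71 in ES15-ES20 and 11.69 in ES21-ES24. It was called lower in 5 of 18 alternative settings.

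Primed epiblast genes were mixed, with 1 of 20 measured (5%) called higher and 7 (35%) lower, against 5.15% and 4.99% over all genes. Their median was -0.42, which was -0.0084 with at least 8 probe sets per gene and -0.78 without dim genes. Grhl2, an epithelial factor of formative cells, differed by -1.80, Nodal by -1.45 and Foxd3 by -1.38. Fgf5, the classical marker of primed cells, averaged 6.61 ± 0.26 in ES15-ES20 and 7.25 ± 0.18 in ES21-ES24 and was not called. Otx2 averaged 6.72 ± 0.17 in ES15-ES20 and 7.68 ± 0.47 in ES21-ES24. It was not called either, at -0.96, but was called lower in 7 of the 17 alternative settings that measured it. N-cadherin (Cdh2) was the member called higher, at a difference of 1.03, and lost its call in 6 settings, while E-cadherin (Cdh1) had 8.58 as its lowest, 8.92 as its median and 9.31 as its highest value in ES15-ES20, against 10.62, 10.75, 11.27 and 11.86 in ES21 to ES24. Of 18 measured epithelial genes, 6 were called lower and 0 higher, with a median of -0.70. They included Epcam at -2.12, Perp, a desmosomal gene, at -1.86 and the epithelial splicing factor Esrp1 at -1.81. Of 18 measured splicing regulators, 2 (11.1%) were called lower, against 4.99% over all genes, and 0 higher. They were Esrp1 and the RNA-binding protein gene Elavl2 at -1.46. The list's median was -0.10, or -0.16 without ES24. Cdh2, Fgf5 and Otx2 were chosen after their values were seen.

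Of 24 measured targets of BMP, Wnt, Nodal and FGF signals, 3 (12.5%) were called higher and 6 (25%) lower. Over all genes the shares were 5.15% and 4.99%. The list's median was -0.17, or -0.084 without ES22. The lower ones were Ccnd1, Mycn, Dusp6, Spry4, Etv4 and Etv5, and the higher ones Smad6 and Bambi, inhibitors of BMP signalling, and the Wnt inhibitor Nkd1. Spry4, a feedback inhibitor of FGF signalling, had 7.38, 7.72, 6.87, 6.67, 6.85 and 6.63 in ES15 to ES20, against 9.87, 10.17, 10.30 and 10.65 in ES21 to ES24. The Ets factors Etv4 and Etv5, both induced by FGF, differed by -3.04 and -2.28, and the G1 cyclin Ccnd1 by -3.00. Of 33 measured cell cycle genes, 2 were called higher and 2 lower, 6.06% in each direction against 5.15% and 4.99% over all genes, and the median was -0.54. Cyclin E1 (Ccne1) differed by -1.83 and the mitotic activator Cdc20 by -1.07, a call that was lost in 4 settings. The cell cycle inhibitors Cdkn1a, at 1.47, and Rb1, at 1.21, were higher. The counts called in both directions were near the shares over all genes. The mean over the cell cycle list was 10.32, 10.19, 9.88, 9.70, 9.51 and 9.47 in ES15 to ES20. In ES21 to ES24 it was 10.18, 10.31, 10.31 and 10.11. ES17 to ES20 lay below that range, while ES15 and ES16 did not.

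Of 28 measured genes of the primitive streak and early mesoderm, 3 (10.7%) were called higher and 1 (3.57%) lower. Over all genes the shares were 5.15% and 4.99%. The list's median was -0.11, or -0.065 without ES24. Brachyury (T) had 8.90, 8.24, 7.98, 8.14, 8.06 and 8.01 in ES15 to ES20, against 8.46, 9.27, 9.47 and 9.68 in ES21 to ES24, and overlapped, while ES13 held 11.79. The streak gene Mixl1 averaged 6.01 ± 0.47 in ES15-ES20 and 6.21 ± 0.63 in ES21-ES24, against 10.95 in ES13. Both were chosen after their values were seen. The members called higher were Pdgfra, a receptor of mesoderm and mesenchyme, at 4.14, the extraembryonic mesoderm and heart factor Hand1 at 2.87 and Rspo3, a Wnt agonist, at 1.41. Osr1, a factor of intermediate mesoderm, was called lower at -1.81.

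Of 31 measured mesenchymal and matrix genes, 10 were called higher and 1 lower, with a median of 1.02. Postn (periostin) had 9.08, 10.94, 11.65, 12.14, 12.23 and 12.13 in ES15 to ES20, against 5.56, 5.32, 5.18 and 5.25 in ES21 to ES24. Lum (lumican, a collagen-binding proteoglycan) had 4.38, 6.93, 8.08, 9.73, 10.83 and 11.01 in ES15 to ES20, against 3.92, 2.28, 3.26 and 2.74 in ES21 to ES24. ES15 lay near ES21-ES24 for Lum and ES20 lay highest. Tgfbi differed by 3.24. Col1a1 averaged 12.16 ± 0.95 in ES15-ES20 and 9.44 ± 0.42 in ES21-ES24, and Col3a1 averaged 11.04 ± 1.44 in ES15-ES20 and 8.63 ± 0.62 in ES21-ES24 but overlapped, because ES15 had 8.50. Both collagens were chosen after their values were seen. S100a4, a calcium-binding protein of fibroblasts, was lower, with 4.60, 5.15, 4.84, 5.80, 6.13 and 5.35 in ES15 to ES20, against 8.95, 9.44, 7.50 and 6.62 in ES21 to ES24.

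The mean over the mesenchymal list was 8.39, 9.01, 9.41, 9.86, 10.10 and 10.15 in ES15 to ES20, against 8.62, 8.59, 7.95 and 7.66 in ES21 to ES24. ES15 lay within the range of ES21-ES24 and the other 5 arrays lay above it. The mean of the leukocyte and myeloid list was lowest in ES15 as well, at 5.83, 6.79, 7.44, 7.44, 7.51 and 7.70 in ES15 to ES20, against 5.67, 5.57, 5.53 and 5.76 in ES21 to ES24. The mean of the red cell membrane list was instead lowest in ES20, at 8.58, 9.03, 8.61, 8.34, 7.79 and 7.63 in ES15 to ES20, against 6.76, 6.59, 6.58 and 6.50 in ES21 to ES24. The mean of the naive pluripotency list lay at 7.46, 7.42, 7.37, 7.70, 7.57 and 7.78 in ES15 to ES20, against 9.79, 9.85, 10.38 and 10.05 in ES21 to ES24, with 6.09 to 6.32 in ES1 to ES12. The part of these cell types in the difference of other genes was not tested. Without ES15 and ES16, a setting chosen after seeing the data, 1404 genes were called higher and 1325 lower, 917 and 882 of them among those called with all arrays.

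**Figure D3:**
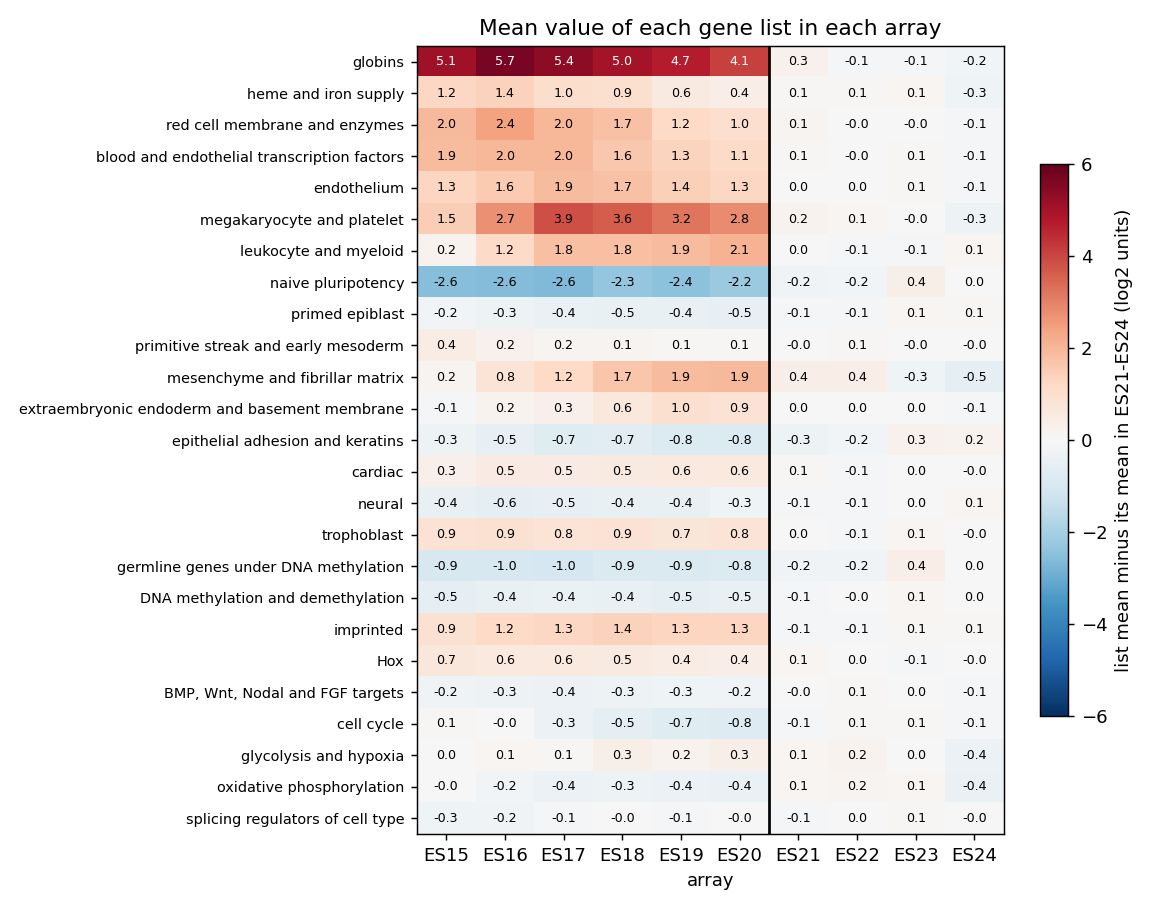
Mean value of each gene list in each array minus the list's mean in ES21-ES24 (log2 units), for ES15-ES20 left of the line and ES21-ES24 right of it. The globin list is 4.1 to 5.7 above ES21-ES24 in every ES15-ES20 array, whereas the mesenchymal list is 0.2 above in ES15 and 1.9 above in ES20.

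Some genes varied widely within a set. A range above 2 log2 units was found for 495 genes in ES15-ES20, a set of 6, and for 116 genes in ES21-ES24, a set of 4. The median SD over genes was 0.238 in ES15-ES20 and 0.241 in ES21-ES24, and the median of the mean difference between pairs of arrays was 0.282 in ES15-ES20 and 0.293 in ES21-ES24. The widest ranges in ES15-ES20, among genes at or above the median gene, belonged to Lum at 6.64, the matrix proteoglycan decorin (Dcn) at 6.16, the protease-like Prss35 at 5.47, Ppbp at 5.31, the immediate early factor Fosb at 4.75 and Pf4 at 4.64. ES15 was lowest in each of these 6 genes. Dcn had 4.35, 7.36, 8.20, 9.50, 10.12 and 10.51 in ES15 to ES20, against 5.21, 5.06, 5.13 and 4.22 in ES21 to ES24, and was not called because ES15 overlapped ES21-ES24.

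In ES21-ES24 the widest ranges were those of the urea transporter Slc14a1 at 3.11, the stress-induced Ier3 at 3.06, Tnfaip2 at 2.90, S100a4 at 2.82, the interleukin-18 receptor subunit Il18rap at 2.81 and the oxygen-sensing hydroxylase Egln3 at 2.77. ES24 was lowest in all 6 of them, and ES21 and ES22 were the 2 highest. Slc14a1 had 7.32, 8.11, 8.97, 8.95, 8.65 and 8.20 in ES15 to ES20, against 10.03, 9.93, 7.94 and 6.92 in ES21 to ES24. Tm4sf1, a membrane protein of the tetraspanin-like group, was called lower and followed the same split, with 6.35, 6.40, 6.26, 6.52, 6.22 and 6.58 in ES15 to ES20, against 12.41, 12.39, 11.70 and 10.25 in ES21 to ES24. Akr1c18, a steroid dehydrogenase, had 2.71 to 3.87 in ES15-ES20, against 8.75, 8.72, 6.56 and 5.30 in ES21 to ES24.

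ES25 and ES26, which share the strain and tissue labels and were in neither set, lay on different sides for different genes. Of the 916 genes lower in ES15-ES20, 363 had both ES25 and ES26 on the ES15-ES20 side of the midpoint between the set means, 455 had both on the ES21-ES24 side and 98 had them split. Of the 26 called naive pluripotency genes, 24 lay on the ES15-ES20 side in both arrays, 1 on the ES21-ES24 side, and 1 was split. All 6 called germline genes lay on the ES15-ES20 side. Tm4sf1, at 12.32 and 12.79, S100a4, at 9.49 and 9.76, Osr1, at 9.60 and 9.95, and Ccnd1, at 12.23 and 12.42 in ES25 and ES26, lay on the ES21-ES24 side. Of the 945 higher genes, 719 had both arrays on the ES21-ES24 side, 128 on the ES15-ES20 side and 98 split. The 14 called blood and endothelial factors had 13 on the ES21-ES24 side, and the 10 called mesenchymal genes had 4 there, 3 on the ES15-ES20 side and 3 split.

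ES13 and ES14 carry the strain label 129S2/SvPas and were in neither set. Of the 945 higher genes, 196 had both arrays on the ES15-ES20 side, 474 on the ES21-ES24 side and 275 split, and of the 916 lower genes 517 were on the ES15-ES20 side, 214 on the ES21-ES24 side and 185 split. Of the 26 called naive genes, 20 lay on the ES15-ES20 side in both arrays.

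Imprinted genes, which are expressed from 1 parental allele, were called higher in 15 of 31 measured cases and lower in 0, with a median of 0.94. Igf2, the fetal growth factor, had 12.16, 12.42, 12.55, 12.79, 12.84 and 12.95 in ES15 to ES20, against 8.16, 8.22, 7.78 and 7.43 in ES21 to ES24. H19, its neighbouring noncoding RNA, had 13.23, 13.36, 13.39, 13.43, 13.31 and 13.28 in ES15 to ES20, against 9.48, 9.21, 11.05 and 10.22 in ES21 to ES24. The 6 values of H19 in ES15-ES20 hardly varied, while ES21-ES24 spanned 9.21 to 11.05. Airn, the noncoding RNA of the Igf2r region, averaged 10.09 ± 0.09 in ES15-ES20 and 6.70 ± 0.19 in ES21-ES24, and Asb4 differed by 3.14. Igf2r itself differed by 0.31 and was not called. Outside the imprinted list, Igfbp5, a binding protein for insulin-like growth factors, averaged 11.72 ± 0.69 in ES15-ES20 and 6.44 ± 0.59 in ES21-ES24. Capn6, a calpain without protease activity and also outside the list, averaged 10.57 ± 0.58 in ES15-ES20 and 4.97 ± 0.27 in ES21-ES24.

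Of 34 measured Hox genes, 9 were called higher and 0 lower; the list's median was 0.22, -0.09 when at least 8 probe sets per gene were required and 0.11 without ES15. Hoxc10 had 7.65, 7.74, 7.15, 7.04, 6.88 and 6.85 in ES15 to ES20, against 4.72, 4.43, 4.28 and 4.82 in ES21 to ES24. Hoxc8 differed by 2.36, Hoxc5 by 2.25 and Hoxc9 by 1.91, and Hoxc6 was called as well, at 1.91. The remaining 4 were Hoxa9 at 1.41, Hoxa10 at 1.69, Hoxa11 at 1.49 and Hoxd10 at 1.16, and no Hoxb gene was called. Hoxc8 was highest in ES15 at 8.44 and lowest in ES20 at 5.54.

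Of 24 measured cardiac genes, with a median of 0.27, 5 (20.8%) were called higher and 0 lower, against 5.15% and 4.99% over all genes. They included the T-box factor Tbx20 at 3.16, Mef2c at 2.59, the slow troponin Tnni1 at 1.76 and Hand2 at 1.44, while the cardiac contractile genes Myh6, at -0.39, and Actc1, at 0.51, were not called. The median of 33 measured extraembryonic endoderm and basement membrane genes was 0.08, and it ranged between 0.047 and 0.27 when 1 array was left out. Of these genes, 5 (15.2%) were called higher and 1 (3.03%) lower. They included transthyretin (Ttr), with 7.41, 8.73, 8.09, 9.35, 10.43 and 9.61 in ES15 to ES20, against 5.62, 5.56, 4.85 and 5.76 in ES21 to ES24, and the endoderm and heart factor Gata6 at 2.93. The endocytic receptor gene Lrp2 was the lower one, at -2.16.

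Of 14 measured trophoblast genes, 5 (35.7%) were called higher and 1 (7.14%) lower, against 5.15% and 4.99% over all genes. Their median was 0.32. Igf2, Plac1 at 3.21 and Hand1 led the higher ones, and Tfap2c was lower at -1.31. Igf2 is also in the imprinted list and Hand1 in the list of the primitive streak and early mesoderm. Of the 14 differences, 7 were positive and 7 negative. Elf5 at -0.06, Tpbpa at -0.10 and Ascl2 at -0.77 were not called. Of 23 measured neural genes, 3 (13.0%) were called lower and 0 higher, with a median of -0.26, or -0.15 without ES24. They were Stmn2, a microtubule regulator of neurons, at -2.79, the neuronal tubulin Tubb3 at -2.34 and Pax6 at -1.12, the last of which lost its call in 3 settings. Of 27 measured glycolysis and hypoxia genes, 3 (11.1%) were called higher and 1 (3.70%) lower, with a median of 0.24, or 0.096 without ES24. They were the collagen prolyl hydroxylases P4ha2 at 1.84 and P4ha1 at 1.20, the mitophagy gene Bnip3 at 1.31 and hexokinase 2 (Hk2) at -1.02. P4ha1 was not called without ES24, nor Bnip3 as the median over all its probe sets. Hk2 was near the threshold and was not called in 5 of the settings that left out arrays. Of 22 oxidative phosphorylation genes 0 were called, with a median of -0.23, or -0.39 without ES24, and Cox5a the most different at -0.82. Of the genes of the X and Y check, Xist, Eif2s3y and Kdm5d were measured and none was called.

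**Figure D4:**
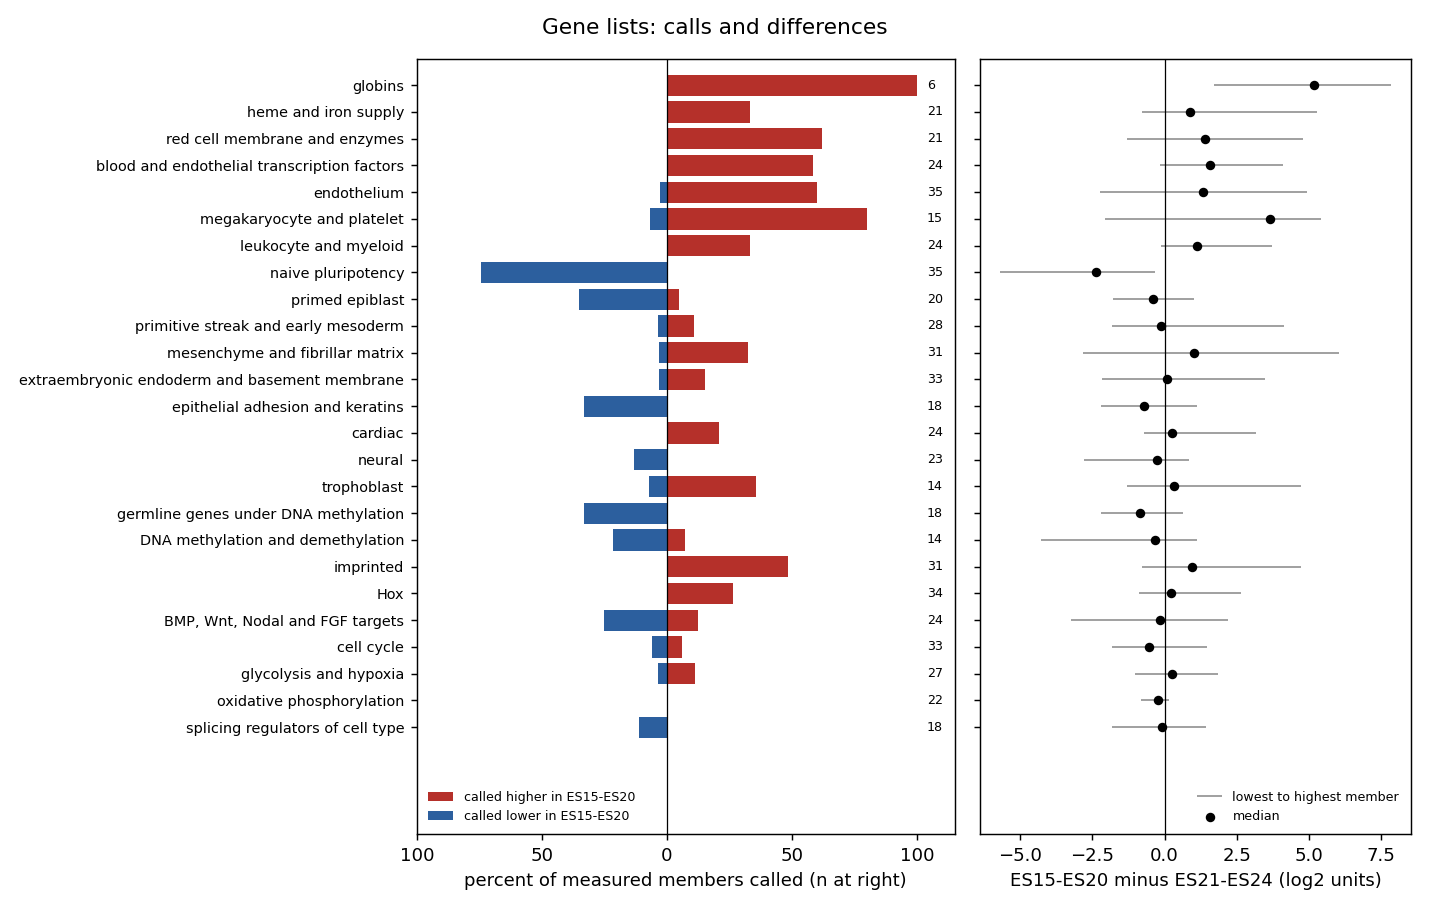
For each gene list with at least 5 measured genes, the percent of measured members called higher (right) or lower (left) in ES15-ES20, and beside it the median and the full span of the differences (log2 units). Globins, with 6 of 6 called higher, and naive pluripotency genes, with 26 of 35 called lower, lie at the 2 extremes. The sets were chosen for RNA of these 2 groups of genes, so these extremes follow from the choice.

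Probe sets were also compared with their own gene, since an exon array can show parts of a gene that differ. Of 117777 probe sets bright enough to be compared, 939 (0.797%) departed from their gene value by at least 1 log2 unit with no overlap, 487 upward and 452 downward, in 546 of 8344 genes. With the gene value as a mean over all its probe sets, 286 departed. Where a probe set lies in its gene (exon, intron or flanking sequence) was not used here. The largest departures were in Igf2, Krt14, Fgf4, Tal1, Samsn1 and Cygb.

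In Igf2, 11 of 21 compared probe sets departed, 8 of them downward. The extreme one had 7.48, 7.55, 7.63, 8.27, 8.23 and 8.35 in ES15 to ES20, against 7.99, 7.73, 7.98 and 8.62 in ES21 to ES24, so it did not follow the gene, whose difference was 4.72. In Fgf4, a growth factor secreted by stem cells, the gene value differed by -1.09, and was not called without ES23, while 5 of 8 compared probe sets departed downward. The extreme Fgf4 probe set had 4.87, 5.42, 3.94, 4.46, 4.89 and 4.32 in ES15 to ES20, against 9.76, 9.84, 10.69 and 10.15 in ES21 to ES24, a difference of -5.46.

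Tal1, the basic helix-loop-helix factor required for all blood, was not called as a gene, with 9.36 ± 0.60 in ES15-ES20 and 8.76 ± 0.27 in ES21-ES24. Of its 8 compared probe sets 4 departed upward, and the extreme one had 8.89, 8.96, 9.33, 8.27, 7.00 and 6.23 in ES15 to ES20, against 3.32, 2.54, 4.43 and 3.36 in ES21 to ES24, a difference of 4.70. The gene value, taken from the brighter probe sets, did not carry the difference held by these 4 probe sets of the same symbol; as a mean over all probe sets the gene was called higher. The oxygen-binding globin relative Cygb gave a similar picture, with a gene difference of 0.70, 7 of 11 probe sets departing, 6 of them upward, and an extreme probe set differing by 4.64.

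In Samsn1, an adaptor gene of immune cells, the gene value was lower, at -1.67, but 4 of 19 probe sets departed upward and the extreme one differed by 2.38. The other compared probe sets differed by -1.70 to -1.57, most of them near 9.3 in ES15-ES20 and 10.9 in ES21-ES24. Whether these near-equal probe sets read separate parts of Samsn1 was not tested. As a mean over all its probe sets the gene differed by 0.04, and as their median by 1.12. In the keratin gene Krt14, 1 of 5 probe sets departed, with a difference of -4.30 while the gene differed by 0.16.

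**Figure D5:**
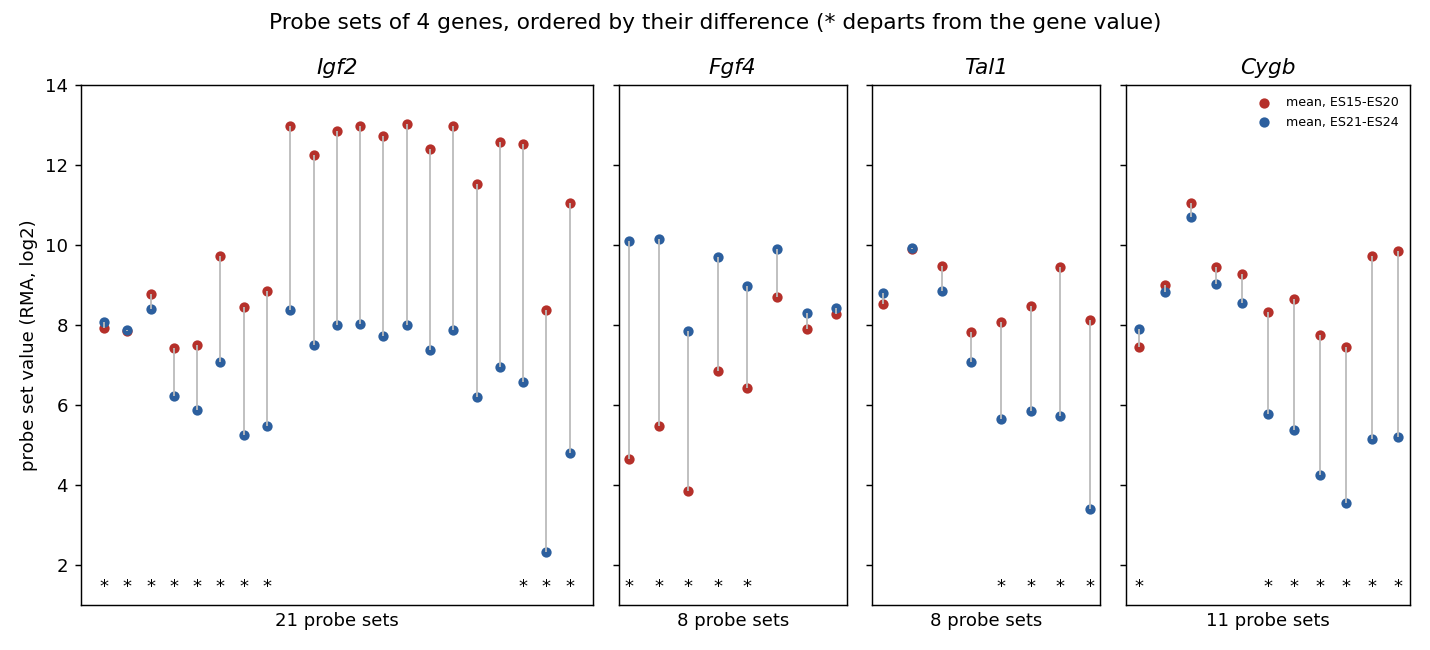
Mean value (log2) of each probe set of Igf2, Fgf4, Tal1 and Cygb in ES15-ES20 and in ES21-ES24, ordered by the difference, with asterisks on probe sets departing from the gene value. In Tal1, 4 of 8 probe sets differ by 2.42 to 4.70 and the others by -0.27 to 0.75, and in Igf2 the 3 leftmost probe sets differ by -0.16 to 0.38.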

How the data were processed

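Per the labels' protocols, RNA was amplified in 2 rounds, labelled and hybridised to exon arrays. The log2 values were deposited by the authors as RMA values (background correction, normalization between arrays and summary of the probes of a probe set) made by Affymetrix Expression Console with its extended-exon probe sets, per the labels and the submitters' processing notes, with no version given in the sources used here. The log base was taken from RMA convention and the range of 0.831 to 15.6. Arrays give no read depth, so the number of arrays limits precision, and per-array medians of the 10 arrays lay between 5.40 and 5.51.

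The platform annotation gave 1 symbol to 306069 of 631748 probe sets, several to 6067 and none to 319612. Of 21757 symbols, 3725 were updated through synonyms in the RefSeq table of GRCm38.p6. A gene value was the median of the brighter 50% of its probe sets (rounded up), ranked by their mean over 26 arrays, for genes with at least 4 probe sets (median 13). A gene was called where the set means differed by at least 1 log2 unit and no arrays overlapped. This replaces a test, because the sets were chosen from these values. The members and gene lists were chosen with earlier results of these data known. A probe set was compared with its gene by subtracting the gene value of the same array, where the gene was at or above the median gene in both sets and the probe set in at least 1. The naming rule took, per direction, the 12 called genes of largest difference with at least 0.75 of probe sets alike and no provisional symbol. It added the markers Hbb-bh1, Hbb-y, Emcn and Dppa5a, the globins, up to 4 called genes per list (the largest difference where none was called), the 6 widest ranges per set, the 6 largest probe set departures and the X and Y genes. Other genes and list members were named after their values were seen. Alternatives covered the gene summary, the probe set minimum, dim genes, normalization, the threshold and each array left out. Scripts used Python 3.11.15, numpy 2.4.6, pandas 2.3.3 and scipy 1.17.1, and the calling rule was tested on simulated data.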

Additional observations from a re-analysis of the deposited data

Results flagged for a closer look

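In several named genes 1 array stood apart from the rest of its set, its gap to the nearest array taking more of the set's range than Dixon's 95% limit. Of 356 sets of values examined, 178 in each array set, 20 stood out, against 17.8 expected if chance flags about 1 in 20. The number is near that of chance, so the values below are given as descriptions, and genes that vary together are flagged together.

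In ES15-ES20, ES15 stood apart in 6 genes. It was lowest for Ccl3 at 8.996, Cd52 at 5.025 and Ptprc at 4.518, and highest for Eif1a at 11.07, Nodal at 6.801 and T at 8.904. ES20 was highest for Sox2 at 9.031 and Pax6 at 5.581 and lowest for Akr1c18 at 2.709. ES17 was lowest for Pla2g1b at 5.278.

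In ES21-ES24, ES23 was highest for Fbxo15 at 11.15, Sycp3 at 7.27, Tubb3 at 10.54, Klf2 at 10.57, Eif1a at 11.84 and Ptprc at 4.417. ES24 was lowest for Cdkn1a at 8.054, Dcn at 4.223 and Gata2 at 7.05, and for the mean over the oxidative phosphorylation genes at 10.24.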

How the results depend on the processing

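No p-value was given for this contrast, so the alternatives bear on counts and differences only, and the labels define neither set. The counts of called genes stayed within 1.5 times of 945 higher and 916 lower in every setting that kept the 1 log2 minimum; leaving out 1 array gave 897 to 1239 higher and 822 to 1129 lower, the most without ES15. A minimum of 2 log2 units gave 327 and 166 and left 126 departing probe sets, against 286 with the gene value as a mean over probe sets. Departing probe sets numbered 900 to 1269 without 1 array.

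Of 448 list medians under alternatives, 30 moved by more than the SD within the sets. With gene values as means over all probe sets, the medians were 4.56 for globins, 0.37 for cardiac, -0.15 for neural and 0.020 for Hox genes. With the median over all probe sets they were 4.44 for globins, 2.08 for red cell membrane genes, -2.92 for naive pluripotency, -0.10 for neural genes and -0.30 for splicing regulators. With the brighter 50% ranked over the 10 arrays, globins had 5.72 and naive pluripotency -2.90. With at least 8 probe sets per gene, naive pluripotency had -1.79, primed epiblast -0.0084, cardiac 0.43 and Hox -0.086, and no globin was left. Without genes below the median gene in both sets, the medians were 2.21 for red cell membrane genes, 1.97 for blood and endothelial factors, 1.77 for endothelium, 2.26 for leukocyte and myeloid genes, -2.75 for naive pluripotency, -0.78 for primed epiblast, 1.06 for cardiac, -0.081 for neural, 1.16 for trophoblast and 1.16 for Hox genes, and no germline gene was left. Centring each array moved the cardiac median to 0.21. Without 1 array, the median was 0.22 to 0.35 for cardiac genes, -2.54 to -2.11 for naive pluripotency and -0.34 to -0.15 for neural genes. Medians near 0 moved by over 1.5 times as well. The extraembryonic median was 0.27 without ES15, 0.16 without ES16, 0.047 without ES19, 0.25 without ES21 and 0.26 without ES22. The Hox median was 0.11 without ES15 and 0.14 without ES23, the neural one -0.17 without ES16 and -0.15 without ES24, and that of signalling targets -0.11 without ES21 or ES23 and -0.084 without ES22. Without ES15 the median of streak genes was -0.070, and without ES24 the medians were -0.065 for streak genes, 0.096 for glycolysis and hypoxia, -0.39 for oxidative phosphorylation and -0.16 for splicing regulators. The cause was not tested.

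Of 2649 values of 151 named genes, 2537 moved by less than the SD within the sets, 110 by more, and 2 reversed, both for Samsn1 (0.040 as a mean and 1.12 as a median over its probe sets). Of 120 called named genes, 106 kept their call in every setting that measured them. Of these, 59 were measured in all 18 settings and 47 were missing from at least 1, because of the minimum of 8 probe sets or the removal of dim genes. Leaving out 1 array brought 8 of the other called genes below the minimum of 1 log2 unit. Without ES24 the differences were 0.86 for Runx1, 0.86 for Cdh2, 0.94 for P4ha1 and -0.94 for Hk2, without ES23 they were -0.93 for Fgf4 and -0.94 for Pax6, and without ES17 Tet3 differed by 1.00, just under it. Cdc20 lost its call without ES18, ES19 or ES20 (-0.97 to -0.99), Cdh2 also without ES17, ES18 or ES23 (0.99 to 1.00) and Hk2, just under the minimum, also without ES15, ES16 or ES17. As the median over all probe sets, Pf4 at 4.31, Ptprc at 2.40 and Mpo at 1.55 overlapped between the sets, and Apln at -0.92 and Bnip3 at 0.94 fell short of the minimum. Without ES15, Col3a1 at 2.91, Dcn at 4.23, Ppbp at 4.61 and Prss35 at 3.10 were called higher, and without ES24, Ier3 at -2.28 and Il18rap at -2.52 were called lower. Otx2 was called lower in 7 alternative settings and Eif1a in 5. No paired analysis was possible because the labels give no pairing between the arrays of the 2 sets.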

Other observations

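Motif shares in promoters of called genes were counted as a description. Of 936 windows of 707 genes called higher, 8.01% held AGATAA, 5.88% TGATAA and 65.3% CCNCNCCC. Of 947 windows of genes called lower, 4.96% held AGATAA, 4.33% TGATAA and 61.6% CCNCNCCC. ATTTGCAT was in 2.01% of windows of genes called lower and 1.18% of those called higher, against 1.60% over all windows. AAGGTCA was in 3.17% of windows of genes called lower and 2.67% of those called higher, against 4.08% over all windows. For CCAAT these shares were 35.5%, 32.2% and 33.8%. Over all windows the shares were 9.99% for AGATAA, 7.94% for TGATAA and 45.9% for CCNCNCCC, so the GATA motifs were no more frequent in windows of genes called higher than over all windows. Genes with several starts have several windows, and base composition was not matched.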
